A study of Canis lupus familiaris with 10 samples.

Results

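The crystallins measured in the canine retina are described here. They were taken as all probe sets of the array whose single gene symbol was CRYAA, CRYAB, CRYBA1, CRYBA2, CRYBA4, CRYBB1, CRYBB2, CRYBB3, CRYGS or CRYM. The rule found 12 probe sets for 9 of these 10 genes, out of 42924 probe sets on the array without its controls, and CRYBB3 was not analysed here. Neural retina was profiled in 5 dogs with glaucoma and in 5 healthy control dogs, with 1 Affymetrix Canine genome array per dog. The glaucomatous retinas came from a 5-year-old Shiba Inu, a 14-year-old Shiba Inu, a 5-year-old Basset Hound, a 7-year-old Basset Hound and a 9-year-old Dalmatian, which were clinic patients with primary glaucoma on pressure-lowering eye drops. All 5 control dogs were Beagles aged 4 years without ophthalmic findings, numbered 1 to 5 as in the sample labels. Values per retina are given in these orders. Ages are those of the sample labels, which differ from the ages printed in the study for the older Shiba Inu and the Dalmatian, and the values with age in the model rest on the labels. No breed occurred in both groups and each glaucoma dog was older than the control dogs. By the study's methods the glaucomatous eyes were enucleated to relieve the patients, whereas the control dogs were euthanized for other reasons. Breed, drug treatment and this difference in collection thus cannot be told apart from the disease. Age can be told apart only as a linear term among the glaucoma dogs. The neural retina holds many cell types, and fewer cells of a type cannot be told apart from less RNA per cell.

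Crystallins are the main soluble proteins of the lens, where their dense packing gives transparency and refraction. The alpha crystallins are small heat shock proteins that keep damaged proteins from aggregating, whereas the beta and gamma crystallins are structural proteins built from repeats of a shared fold. Several of these genes are also transcribed in the retina, where alpha B crystallin is found in glia and is induced by stress, and mu crystallin, CRYM, is an enzyme that binds thyroid hormone and owes its name to the lens of marsupials.

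Values are log2 RMA intensities, and a probe set was tested where it lay above 7 in at least 2 retinas, the minimum for an expressed gene in the study's methods. This held for 10 of the 12 crystallin probe sets and for 18416 of all probe sets. CRYAB passed the test and was higher in glaucoma, and no crystallin was lower. It was also the only one with an unadjusted limma p under 0.05. The called share was thus 1 of 10, where limma (adjusted p under 0.05, Benjamini-Hochberg) called 17% of all tested probe sets, 7.58% as higher and 9.4% as lower. With a minimum of 2-fold added, 0 crystallin probe sets were called, beside 2.95% of all as higher and 3.12% as lower. Without the minimum on expression, CRYAB alone of the 12 was called, beside 8.31% of all 42924. The median log2 difference over the 9 genes was -0.02, against -0.01 over all 7900 tested genes. None of the 12 probe sets separated the groups without overlap, as 6.82% of tested probe sets did with higher and 8.03% with lower values in glaucoma. In most beta and gamma crystallin probe sets the spread between dogs of 1 group was wide, though not in the tested one of CRYBB1. The Dalmatian and Beagle 3 held the highest values of their groups in most beta and gamma crystallins.

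**Figure D1:**
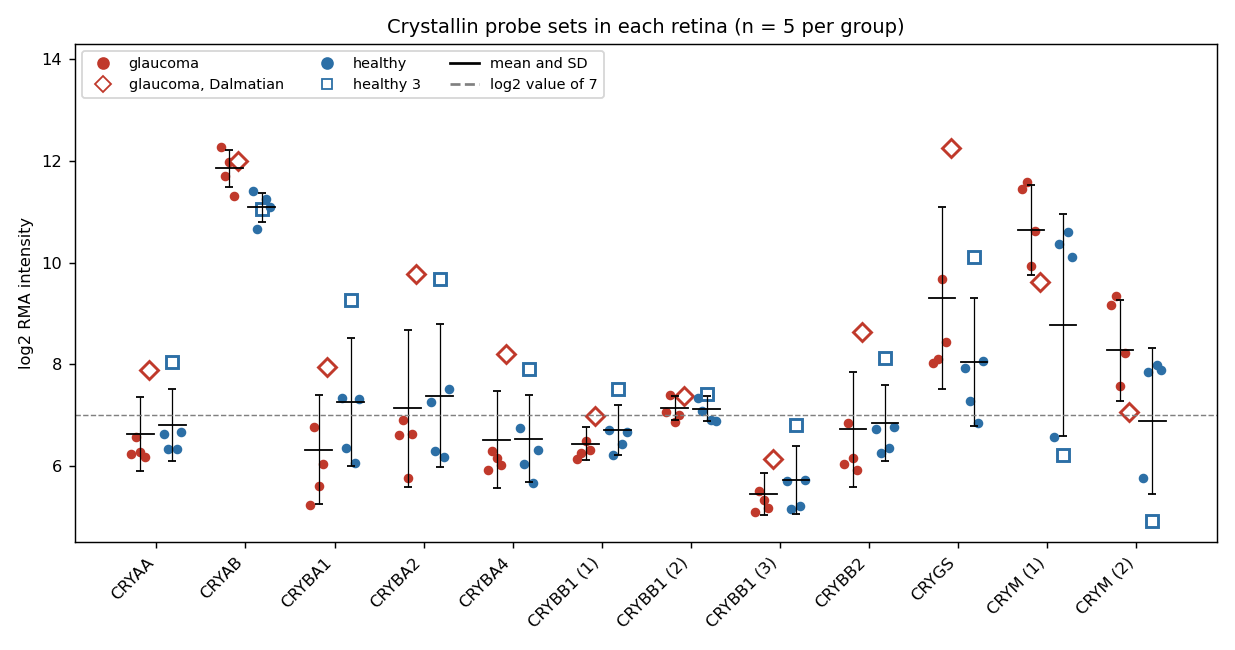
Log2 RMA intensity of the 12 crystallin probe sets in each retina, glaucoma (red) left of healthy (blue), with the mean and SD of 5 dogs per group. CRYBB1 has 3 and CRYM 2 probe sets, numbered in the order of their identifiers, and the open symbols of the Dalmatian and Beagle 3 lie above the rest of their groups in most beta and gamma crystallins.

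Median intensity was 78 to 80.7 in the glaucomatous and 77.1 to 80.6 in the control retinas, with 15910 to 16315 probe sets of each array exceeding the minimum. Rod markers were abundant in 9 retinas, with summed intensities of 46400 to 78650 in the other 4 glaucomatous and 60480 to 84550 in the control retinas. The 5-year-old Shiba Inu stood apart at 10970. Its log2 level of RPE65, an enzyme of the pigment epithelium, was 13.37, against 8.77 to 11.95 in the other glaucomatous retinas. Beagle 4, at 13.02, had the highest level of RPE65 among the controls. The other controls lay at 6.38 to 8.57, below every glaucomatous retina. The log2 difference of RPE65 was 2.87 (limma, SE 1.26, adjusted p = 0.139) and did not pass. Of the markers of pigment epithelium and melanocytes 1 of 12 tested genes, SERPINF1, was higher in glaucoma. Over all tested genes 8.04% were higher and 8.65% lower. The median log2 difference of the pigment epithelium list was 0.74, against -0.01 over all tested genes. Of the markers of ciliary body and iris 2 of 7 were higher, AQP1 and DES, and 1 was lower, WFDC1. The part of pigment epithelium in the crystallin values was not tested.

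CRYAB encodes alpha B crystallin, the chaperone of this family that is most widely found outside the lens. Its log2 levels were 12.27, 11.71, 11.99, 11.31 and 12.00 in the glaucomatous retinas, against 11.42, 10.65, 11.05, 11.24 and 11.10 in the control retinas. The 7-year-old Basset Hound, below Beagle 1, was the only overlap, and the other 4 glaucomatous retinas lay above every control. The mean log2 level of the glaucomatous retinas was 11.86 ± 0.37 and that of the control retinas 11.09 ± 0.28 (SD over the 5 dogs of each group), a log2 difference of 0.76 (SE 0.19, 95% interval 0.34 to 1.19) or 1.70-fold, which passed (limma, adjusted p = 0.0205). The call was not kept without the Dalmatian (adjusted p = 0.0523), without Beagle 2 (0.0535), without both Shiba Inus (0.0565) or without the Dalmatian and Beagle 3 together (0.0988). The log2 difference in these 4 fits was 0.65 to 0.73. With the signal ratio of the 3' to the 5' end of actin and GAPDH in the model, the difference was 0.77 (adjusted p = 0.0297) with all 9 such control probe sets and 0.80 (adjusted p = 0.109) with the 4 of 1 control design. The log2 ratio of that design averaged 0.94 ± 0.14 over the glaucomatous and 1.19 ± 0.22 over the control retinas (SD, 5 dogs per group).

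Markers of reactive glia moved with the group as CRYAB did. Of 7 tested genes of this list 5 were higher in glaucoma, and of 9 Müller glia genes 3 were higher and 1 was lower. The median log2 difference of the reactive glia list was 1.27. Its summed intensity was 19240 to 24590 in glaucoma and 13840 to 16440 in the controls, without overlap. Most of each sum came from VIM, which is also on the Müller glia list. VIM differed by 0.22 and was not called (limma, adjusted p = 0.103). The part of reactive glia in the CRYAB difference was not tested. Of the ganglion cell markers 8 of 11 tested genes were lower and 1 was higher. The higher one was SNCG, by its brighter probe set (limma, log2 difference 2.52, adjusted p = 0.000195). Its other tested probe set, which the study lists as decreased, was lower (limma, -2.57, adjusted p = 0.000232), so the direction of SNCG differed between probe sets.

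**Figure D2:**
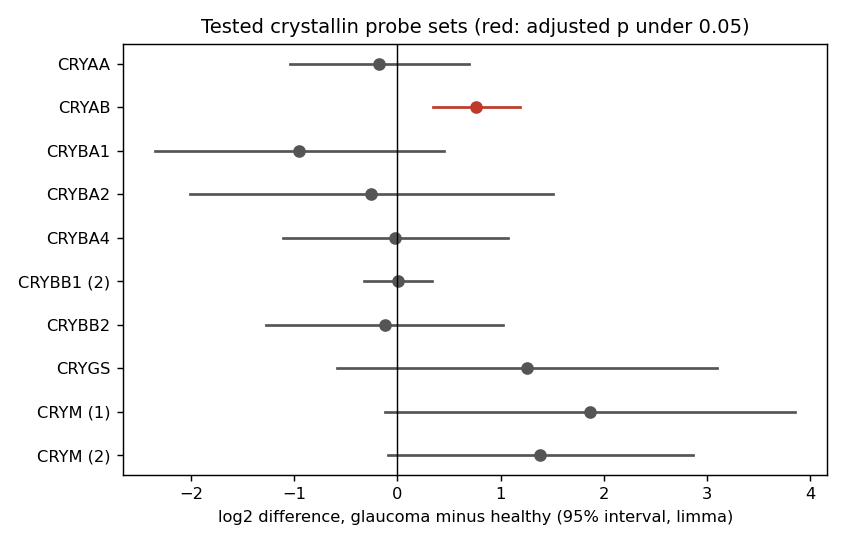
Log2 difference of glaucoma minus healthy for the 10 tested crystallin probe sets, with the 95% interval from limma, and red marking an adjusted p under 0.05. The interval of CRYAB, 0.34 to 1.19, is the only one that lies wholly above 0, and those of CRYGS and CRYM are wide.

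Over the 10 retinas, the likeness of a gene to CRYAB was measured as the root mean square distance between profiles, each centred and scaled to an SD of 1. The genes nearest to CRYAB were SOX2 (distance 0.234), DNASE1L1 (0.272) and NUPR1 (0.3), where the median of all genes was 1.36. SOX2, a transcription factor of neural progenitors, Müller glia and lens development, had log2 levels of 10.34, 9.92, 10.03, 9.45 and 10.20 in the glaucomatous retinas, against 9.31, 8.89, 8.95, 9.34 and 9.32 in the controls. The groups did not overlap, and the log2 difference of SOX2 was 0.83. For NUPR1, a stress-induced chromatin protein, the log2 difference was 1.24, and for DNASE1L1, a relative of the nuclease DNase I, it was 0.84. These 3 genes were chosen for their likeness to CRYAB, so their differences are a description. NUPR1 and DNASE1L1 also had no overlap between the groups. In all 3 genes, as in CRYAB, the 7-year-old Basset Hound was the lowest glaucomatous retina and the 5-year-old Shiba Inu the highest.

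**Figure D3:**
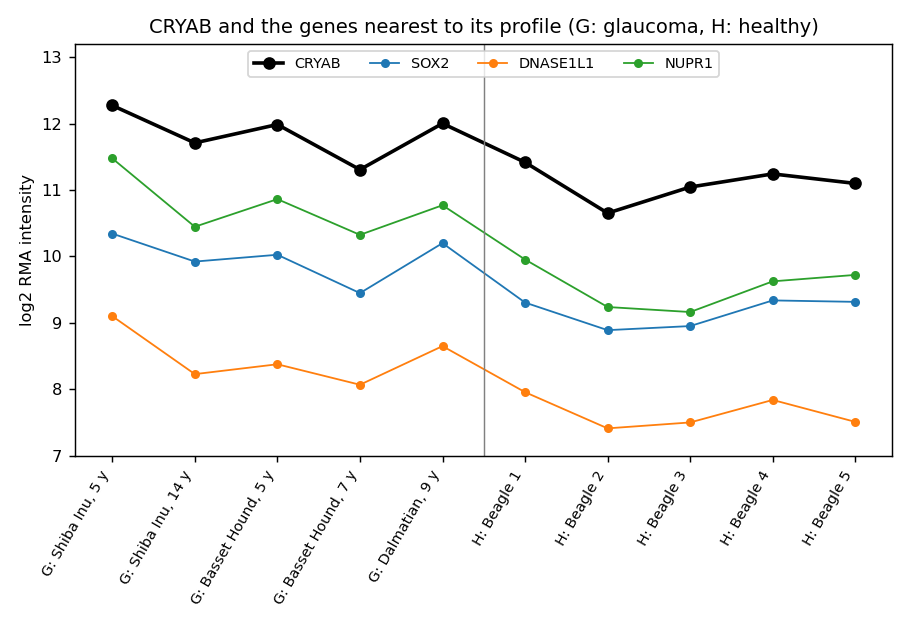
Log2 RMA intensity of CRYAB and of the 3 genes with the nearest profile, by retina, glaucoma left of healthy. SOX2, DNASE1L1 and NUPR1 run in parallel with CRYAB, and in each of the 4 the 5-year-old Shiba Inu is the highest retina.

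In the reference assembly UU_Cfam_GSD_1.0, HSPB2, another small heat shock protein, is the gene next to CRYAB. Its log2 levels were 9.41, 8.40, 8.96, 8.75 and 9.28 in glaucoma, against 8.76, 8.39, 8.35, 9.01 and 8.66 in the controls. These ranges overlapped, and the log2 difference of HSPB2 was 0.32 (limma, SE 0.20, adjusted p = 0.291) at 1 probe set and 0.41 (SE 0.16, adjusted p = 0.112) at the other. Of the 8 tested genes of small heat shock proteins and partners of alpha crystallin none passed the test, and their median log2 difference was 0.01. HSPB1, the heat shock protein that forms mixed complexes with alpha B crystallin, differed by -0.0043 (adjusted p = 0.991). For BAG3, a co-chaperone of HSPB8, the log2 difference was 0.38 (adjusted p = 0.210), and for HSPB8 itself it was 0.17 (adjusted p = 0.787). The 5-year-old Shiba Inu had an HSPB8 level of 11.655, against 9.45 to 9.69 in the other glaucomatous retinas and 9.53 to 10.13 in the controls. Other tested probe sets of HSPB8 differed by 0.13 and -0.11.

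CRYAA encodes alpha A crystallin, the partner of alpha B in the lens. Its log2 levels were 6.23, 6.57, 6.28, 6.17 and 7.89 in the glaucomatous retinas, against 6.62, 6.34, 8.04, 6.34 and 6.68 in the controls. Only the Dalmatian and Beagle 3 lay above the minimum of 7, and the other 8 retinas lay between 6.17 and 6.68. The log2 difference was -0.17 (limma, SE 0.39, 95% interval -1.04 to 0.69, adjusted p = 0.795), within the spread between dogs.

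The acidic beta crystallins, CRYBA1, CRYBA2 and CRYBA4, had the same 2 retinas on top. CRYBA1, which yields 2 proteins from alternative start codons and is known from astrocytes and pigment epithelium as well as lens, had log2 levels of 5.23, 6.77, 5.62, 6.03 and 7.94 in glaucoma, against 7.34, 6.35, 9.27, 6.05 and 7.32 in the controls. Its log2 difference was -0.95 (limma, SE 0.64, 95% interval -2.35 to 0.45, adjusted p = 0.329). It was -1.35 without the Dalmatian and -0.45 without Beagle 3, and neither passed (adjusted p = 0.178 and 0.600). With age in the model it was -1.66 (adjusted p = 0.207). Without the Dalmatian and Beagle 3 together the difference was -0.85 (adjusted p = 0.224). The size of the CRYBA1 difference thus depended on which of these dogs was included, whereas it stayed negative.

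CRYBA2, a lens crystallin of the same subfamily, had log2 levels of 6.61, 6.90, 5.76, 6.62 and 9.79 in glaucoma, against 7.26, 6.30, 9.67, 6.18 and 7.52 in the controls. The Dalmatian and Beagle 3 lay within 0.11 of each other on the log2 scale, and each was more than 7-fold above the median of the other dogs of its group (8.997-fold and 7.43-fold). The log2 difference between the groups was -0.25 (limma, SE 0.80, adjusted p = 0.860), and it was -0.91 without the Dalmatian and 0.32 without Beagle 3. Without both of these dogs it was -0.34 (adjusted p = 0.600). CRYBA4 had log2 levels of 5.93, 6.29, 6.17, 6.01 and 8.20 in glaucoma, against 6.75, 6.03, 7.90, 5.67 and 6.32 in the controls. Again only the Dalmatian and Beagle 3 lay above 7, and the log2 difference was -0.02 (limma, SE 0.50, 95% interval -1.11 to 1.07, adjusted p = 0.986).

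The basic beta crystallins were represented by CRYBB1 and CRYBB2, which form mixed oligomers with the acidic ones in the lens. CRYBB2 had log2 levels of 6.04, 6.85, 6.16, 5.91 and 8.63 in glaucoma, against 6.73, 6.25, 8.12, 6.36 and 6.77 in the controls. The Dalmatian was 5.77-fold above the median of the other glaucomatous retinas and Beagle 3 2.98-fold above that of the other controls. The log2 difference of CRYBB2 was -0.12 (limma, SE 0.52, 95% interval -1.27 to 1.03, adjusted p = 0.894).

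CRYBB1, the neighbour of CRYBA4 in the reference assembly, had 3 probe sets. The tested one had log2 levels of 7.05, 7.39, 6.86, 7.00 and 7.37 in glaucoma, against 7.34, 7.08, 7.41, 6.91 and 6.88 in the controls. The ranges were nearly the same, and the log2 difference was 0.01 (limma, SE 0.15, 95% interval -0.32 to 0.34, adjusted p = 0.975). The other 2 probe sets were not tested, since 1 retina and none lay above 7. The first of these had log2 levels of 6.15 to 6.99 in glaucoma and 6.23 to 7.52 in the controls, and the second 5.10 to 6.14 in glaucoma and 5.15 to 6.81 in the controls. In both of these, the Dalmatian and Beagle 3 were again the highest of their groups, whereas the tested probe set showed this for Beagle 3 only.

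CRYGS encodes gamma S crystallin, a late-expressed crystallin of the lens cortex. Its log2 levels were 8.02, 8.11, 9.68, 8.44 and 12.26 in glaucoma, against 7.92, 7.27, 10.11, 6.85 and 8.07 in the controls. The Dalmatian lay 15.8-fold above the median of the other glaucomatous retinas, and Beagle 3 5.73-fold above the median of the other controls. The 5-year-old Basset Hound, at 9.68, was the next of the glaucomatous retinas. The mean log2 level of the glaucomatous retinas was 9.30 ± 1.78 and that of the control retinas 8.04 ± 1.26 (SD over the 5 dogs of each group), and the log2 difference of 1.26 (SE 0.84, 95% interval -0.58 to 3.10), or 2.39-fold, did not pass (limma, adjusted p = 0.325). It was 0.52 (adjusted p = 0.633) without the Dalmatian and 1.78 (adjusted p = 0.164) without Beagle 3. Without both of these dogs it was 1.04 (adjusted p = 0.155).

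The animals on top were thus shared between genes. The Dalmatian was the highest glaucomatous retina and Beagle 3 the highest control in 6 of the 10 tested crystallin probe sets, those of CRYAA, CRYBA1, CRYBA2, CRYBA4, CRYBB2 and CRYGS, and in 714 of all 18416 tested probe sets (3.88%). In the same 6, both dogs lay more than 1 log2 unit above the median of the other dogs of their group, which held for 12 tested probe sets in all (0.0652%). The other 6 of these were those of TIMP1, an inhibitor of matrix metalloproteinases, of complement component C2, of VMO1 and ZMAT1, and 2 without a gene symbol. With the untested probe sets included, they were on top in 8 of the 12 crystallin probe sets and in 4144 of all 42924 (9.65%). This pattern was noticed in the data and is given as a description. CRYAA, CRYBA4 and CRYBB2 passed the minimum for testing only through the Dalmatian and Beagle 3. The shares over tested probe sets thus include members admitted by these same values. The share with both dogs more than 1 log2 unit above was not taken over all 42924. The Dalmatian exceeded Beagle 3 by a log2 difference of 2.15 in CRYGS and 0.51 in CRYBB2, whereas it lay below Beagle 3 by -1.33 in CRYBA1, so the 2 retinas did not share 1 ratio over these genes.

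**Figure D4:**
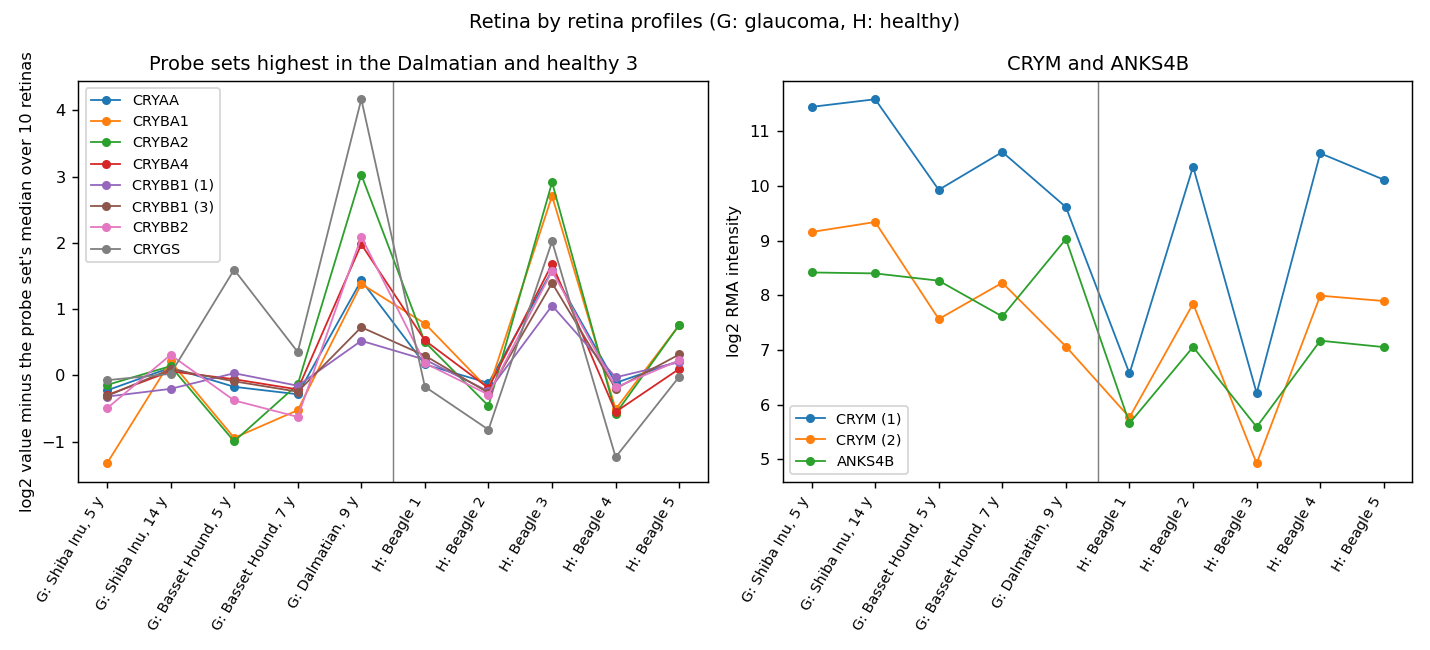
Left, log2 value minus the median over the 10 retinas for the 8 crystallin probe sets that were highest in the Dalmatian among the glaucomatous retinas and in Beagle 3 among the controls (CRYBB1 with 2 of its 3). Right, log2 RMA intensity of the 2 CRYM probe sets and of ANKS4B, with Beagles 1 and 3 lowest in all 3. Glaucoma stands left of the vertical line in both panels.

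By the same distance between profiles, each of CRYAA, CRYBA1, CRYBA2, CRYBA4, CRYBB2 and CRYGS had another of these as its nearest crystallin. They were grouped above by their shared highest retinas, so small distances between them follow in part from that choice. CRYAA and CRYBB2 were 0.214 apart, CRYBA2 and CRYAA 0.241, CRYBA4 and CRYAA 0.256, CRYBA1 and CRYAA 0.42 and CRYGS and CRYBA4 0.516. The median distance to all genes was 1.37 to 1.38, but each value here is the smallest over the crystallins. For CRYBA1 and CRYGS a gene outside the crystallins was nearer than any crystallin. Outside the crystallins the nearest gene was CHAC1, an enzyme of glutathione breakdown, for CRYAA (0.45), the prostaglandin receptor PTGER1 for CRYBA4 (0.375) and for CRYBB2 (0.408), and PREB for CRYGS (0.455). CYB561D1 was nearest to CRYBA1 (0.366) and LCNL1 to CRYBA2 (0.453). The scaling to an SD of 1 leaves out the size of the variation. Log2 levels ran from 6.70 to 7.20 in CHAC1, 6.85 to 7.30 in PTGER1 and 8.06 to 8.54 in PREB. They ran from 7.02 to 7.52 in CYB561D1 and 7.43 to 8.37 in LCNL1, against 6.17 to 8.04 in CRYAA and 6.85 to 12.26 in CRYGS. CRYAB, CRYBB1 and CRYM lay apart from the other crystallins, with a distance to their nearest crystallin of 1.03, 0.714 and 1.12. The nearest genes of CRYBB1 were LOC484082 (0.222) and EPN3 (0.226), and all 10 of its own values lay between 6.86 and 7.41.

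Other genes of the lens were mostly low. Of 11 lens markers with 15 probe sets, 2 genes passed the minimum and 0 were called. BFSP1, a filament protein of lens fibres, had a log2 difference of -0.41 (limma, adjusted p = 0.178), and BIRC7 of 0.03 (adjusted p = 0.871). The highest of all lens marker values was 8.26, that of BFSP1 in Beagle 1. MIP is the water channel of lens fibres. At its dimmer probe set it had log2 levels of 4.94, 5.26, 5.15, 5.13 and 6.16 in glaucoma, against 5.32, 5.44, 5.82, 5.38 and 5.30 in the controls. Its brighter probe set ran from 5.57 to 6.08 in glaucoma and from 5.53 to 6.05 in the controls. The Dalmatian and Beagle 3 were both the highest of their groups in 4 of the 15 lens marker probe sets, beside 9.65% of all 42924. These were both probe sets of MIP and 1 each of the lens proteins BFSP2 and LIM2, all 4 below the minimum of 7. The remaining lens marker probe sets did not show this. The gamma crystallins CRYGA, CRYGB and CRYGD lay at 5.23 to 6.70 in all 10 retinas. Summed over the lens list, intensity was 800.7 to 923.2 in glaucoma and 850 to 1056 in the controls, with 912.1 in the Dalmatian and 915 in Beagle 3. Most of this sum came from genes below the minimum, so it cannot show the amount of lens RNA. The part of lens material in the values of these 2 retinas was not tested.

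CRYM encodes mu crystallin, the thyroid hormone binding ketimine reductase. At its first probe set the log2 levels were 11.45, 11.59, 9.93, 10.62 and 9.62 in glaucoma, against 6.57, 10.36, 6.21, 10.60 and 10.12 in the controls. Beagles 1 and 3 lay far below the other 3 controls, and those 3 lay within the range of the glaucomatous retinas. The mean log2 level of the glaucomatous retinas was 10.64 ± 0.88 and that of the control retinas 8.77 ± 2.18 (SD over the 5 dogs of each group), and the log2 difference of 1.87 (SE 0.90, 95% interval -0.12 to 3.86), or 3.66-fold, did not pass (limma, adjusted p = 0.178). The SD of the controls was larger than that of 99.9% of all tested probe sets.

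The second CRYM probe set had log2 levels of 9.16, 9.34, 7.57, 8.23 and 7.07 in glaucoma, against 5.77, 7.85, 4.93, 7.995 and 7.90 in the controls. The order of the dogs was nearly the same, and the log2 difference was 1.39 (limma, SE 0.67, adjusted p = 0.179). Without Beagle 1 the log2 differences of CRYM were 1.32 and 1.11, and without Beagle 3 they were 1.23 and 0.90. Both Shiba Inus and the 7-year-old Basset Hound lay above every control at both probe sets of CRYM.

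Beagles 1 and 3 lay below the other 3 controls by a gap of more than 1 log2 unit in 3 of 18416 tested probe sets (0.0163%), which were both of CRYM (gaps of 3.55 and 2.08) and the 1 of ANKS4B (gap of 1.39). In the reference assembly ANKS4B, a scaffold protein of epithelial microvilli, is the gene next to CRYM, and the 2 genes do not overlap there. It was picked for this pattern. The log2 levels of ANKS4B were 8.42, 8.40, 8.27, 7.62 and 9.03 in glaucoma, against 5.66, 7.06, 5.59, 7.17 and 7.05 in the controls. Each glaucomatous retina lay above each control, and the log2 difference was 1.84, given as a description. The genes nearest to CRYM in profile were ANTKMT (0.437), the vesicle trafficking protein SCFD1 (0.445) and the cytokine receptor IL11RA (0.475), with log2 differences of 0.47, 0.26 and 0.23.

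Of 6 tested genes of thyroid hormone handling 1 was lower and 0 were higher, with a median log2 difference of -0.22. RXRG, a retinoid receptor that pairs with thyroid hormone receptors in cones, had a log2 difference of -1.09 (limma, SE 0.19, adjusted p = 0.00331). The cone list, in which 3 of 8 tested genes were lower, moved with it, and its part was not tested. THRA, a thyroid hormone receptor, differed by -0.38 (adjusted p = 0.0591). TTR, the thyroid hormone carrier transthyretin, which is made by the pigment epithelium, had the largest log2 difference of the list, 2.67 (limma, SE 0.92, adjusted p = 0.0687), and did not pass. Its log2 levels were 14.48, 13.51, 11.38, 13.68 and 14.03 in glaucoma, against 9.48, 11.13, 9.58, 14.20 and 9.32 in the controls, with Beagle 4, the control highest in RPE65, within the range of the glaucomatous retinas. DIO3, a deiodinase that inactivates thyroid hormone, was under the minimum for testing and was called higher only when all probe sets were tested (log2 difference 1.30, limma adjusted p = 0.0250).

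Among the regulators of crystallin genes and lens, 6 genes were tested, with SOX2 higher (limma, log2 difference 0.83, SE 0.17, adjusted p = 0.00833) and PROX1 lower. PROX1, a homeodomain factor of lens fibres and of horizontal and other inner retinal neurons, had a log2 difference of -0.64 (limma, SE 0.15, adjusted p = 0.0164). All 7 tested markers of amacrine and horizontal cells were lower as well, and their part was not tested. PAX6, the eye field factor that stays expressed in inner retinal neurons, differed by -0.23 (adjusted p = 0.581), and the median log2 difference of the 6 genes was -0.33.

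A further list held the other genes with a crystallin name, of which 5 were tested. None of these 5 is a structural crystallin of the dog lens, and the gamma crystallins CRYGA, CRYGB, CRYGD and CRYGN of the list did not reach the minimum for testing. CRYBG1, a relative of the beta and gamma crystallins also known as AIM1, had log2 levels of 10.40, 9.01, 9.19, 9.11 and 9.71 in glaucoma, against 8.49, 8.19, 8.10, 8.48 and 8.24 in the controls. The groups did not overlap, and the level in glaucoma was higher, with a log2 difference of 1.18 (limma, SE 0.24, adjusted p = 0.00772), with 1.21 (adjusted p = 0.0075) at its second tested probe set. CRYL1, lambda crystallin, an enzyme of sugar metabolism, differed by 0.47 (adjusted p = 0.0540) at 1 probe set and passed the test at the other with 0.53 (adjusted p = 0.0406). The quinone reductase CRYZ, known as zeta crystallin from the guinea pig lens, differed by 0.25 (adjusted p = 0.690), CRYBG3 by 0.45 (adjusted p = 0.126) and CRYZL1 by -0.24 (adjusted p = 0.324). The 5-year-old Shiba Inu had the highest log2 level of CRYZ, 11.31, against 9.04 to 9.61 in the other glaucomatous retinas and 9.14 to 10.15 in the controls. Over the list 1 of 5 genes was higher and 0 were lower, where 8.04% of all tested genes were higher and 8.65% lower.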

How the data were processed

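Total RNA of 10 retinas was amplified, labelled with biotin and hybridized by the authors to Affymetrix Canine genome arrays, 1 per dog and without pooling. As their methods state, the authors used RMA for normalization, which subtracts background, equalizes the distribution of probe intensities between arrays and summarizes each probe set. The deposited intensity values were on a linear scale and unfiltered, and their log2 was taken. The software version is not given in the sources used here. Of 43035 probe sets 111 controls were left out, and the array annotation gave 1 gene symbol to 29254 of the remaining 42924, several to 439 and none to 13231. Probe sets above 7 on the log2 scale in 2 or more retinas were tested with limma 3.58.1 in R 4.3.3 (lmFit and eBayes, two-sided, p-values adjusted by Benjamini-Hochberg over 18416 probe sets), with all 10 retinas and no covariate. The script was tested on simulated data.

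For list counts and medians, the tested probe set of highest mean stood for a gene. Summed intensities took the probe set of highest mean of each gene, tested or not. The members and lists were chosen with earlier results of these data known. All members were named. From the lists of related genes, those past the test and up to 4 others could be named, and so could the 3 genes nearest in profile to each member. The gamma crystallins and DIO3 go beyond this rule. Cell type markers are given as counts, with examples picked after their values were seen. ANKS4B, TIMP1, C2, VMO1, ZMAT1 and CRYM's gap pattern were picked after their values were seen. Gene neighbours came from the RefSeq annotation of UU_Cfam_GSD_1.0, and no coordinates were used. Alternatives covered filters, normalization, weights, age, RNA quality, breeds, the replicate number, each retina left out, and the Wilcoxon test of the methods. SAM was not run. Arrays have no read depth, and their number limits the precision. The labels call the samples biological replicates, 1 per dog.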

Additional observations from a re-analysis of the deposited data

Results flagged for a closer look

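In 5 of 24 groups of 5 retinas, over the 12 crystallin probe sets, the highest retina lay far from the others. The measure was its gap to the next retina as a share of the range. The 95% critical value was 0.71, which about 5% of groups of normally distributed values exceed. The Dalmatian was this retina in CRYBA4 (a share of 0.842, with a log2 level of 8.20 and the next at 6.29), in CRYAA (0.766, 7.89 and 6.57) and in CRYBA2 (0.718, 9.79 and 6.90). Beagle 3 was this retina in CRYAA (0.803, 8.04 and 6.68) and in CRYBB2 (0.724, 8.12 and 6.77). The probe sets share their retinas, so these groups are not independent. The share of all probe sets past this critical value was not computed, so the count of 5 of 24 has no background from the array.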

How the results depend on the processing

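No crystallin other than CRYAB passed the test under any alternative in which p-values were adjusted. CRYAB kept its direction throughout, with a log2 difference of 0.65 to 0.90 as each retina was left out, and its adjusted p over the alternatives was 0.00772 to 0.109. It did not pass without both Shiba Inus (0.67), with the Wilcoxon test after adjustment (0.76, adjusted p = 0.0792), without the Dalmatian and Beagle 3 together (0.72), or with the 3' to 5' ratio of 4 control probe sets in the model (0.80). The last 2 alternatives were chosen after seeing the data. The count of higher crystallin probe sets was then 0, as it was with a 2-fold minimum, and 0 to 1 as each retina was left out. The cause was not tested.

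CRYBA1 (-1.66 to -0.45), CRYGS (0.52 to 2.08) and the 2 probe sets of CRYM (1.13 to 2.33 and 0.73 to 1.69) kept their direction in every alternative that gave a value. Directions near 0 turned with the dogs included. CRYAA was 0.0934 without both Basset Hounds. CRYBA2 was 0.0039 without both Shiba Inus, 0.38 without both Basset Hounds and -0.91 to 0.32 as each retina was left out. CRYBA4 was 0.26 without both Shiba Inus, 0.27 without both Basset Hounds, 0.0389 with array weights and -0.23 to 0.13 as each retina was left out. CRYBB2 was 0.0589 without both Shiba Inus, 0.33 without both Basset Hounds and -0.27 to 0.0779 as each retina was left out. CRYBB1 was -0.0498 without both Shiba Inus, -0.20 with age, -0.0063 with arrays shifted to 1 median and -0.0546 to 0.0804 as each retina was left out. Without the Dalmatian or Beagle 3, CRYAA, CRYBA4 and CRYBB2 fell under the expression minimum and gave no value, which also held for these 3, CRYBA1 and CRYBA2 with the minimum required in 5 retinas.

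Over all probe sets, the counts of higher and lower calls, 1396 and 1732, were 544 and 574 with a 2-fold minimum, 2095 and 2811 with array weights, 408 and 522 with the 3' to 5' ratio of 4 control probe sets, 672 and 1029 without the Dalmatian and Beagle 3, and 866 to 1606 and 1111 to 2127 as each retina was left out. The Wilcoxon test gave 0 and 0 after adjustment and 2171 and 2669 at an unadjusted p under 0.05, and age in the model left 886 lower. With the replicate number as a block 1114 were lower and CRYAB passed (adjusted p = 0.0316). The numbers did not pair the dogs (correlations of -0.243 to 0.069 between same-numbered retinas), and the block changed no crystallin call.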
